A study of Bos taurus with 12 samples.

Results

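TDGF1, SERPINA14, SPP1, RBP4, CST3, CST6 and ANPEP are 7 genes whose products the uterine lining secretes into the lumen or carries on cell surfaces. They were followed across endometrial biopsies of grazing dairy cows (Bos taurus) classed by their progesterone on day 4 of the estrous cycle, in early diestrus. The genes were chosen by symbol, and all 7 were among the 13930 gene symbols of the count table and among the 10959 that had enough reads to be tested. The study had 12 mRNA libraries in 4 classes of 3, defined by progesterone concentration on that day, and addressed the relation of early luteal progesterone to gene expression in the endometrium. The very low class (titled ANE) lay below 0.25 ng/ml, the low class (LPP4) below 1.4 in a unit that its labels give as mg/dl, the high class (HPP4) above 2.5 ng/ml and the class titled SO, the very high one, above 20 ng/ml. The labels give no breed, age, parity or treatment, do not spell out ANE or SO, and leave unsaid if replicates were separate cows, so the tests measure the spread between these samples.

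Uterine secretions feed the conceptus before it attaches, and in ruminants progesterone of the luteal phase is the main signal that turns on the secretory program of the endometrial glands. TDGF1 (also called CRIPTO) encodes a small cell surface and shed protein that acts as co-receptor for the TGF-beta ligand NODAL. SERPINA14 encodes the uterine serpin, or uterine milk protein, a major product of the pregnant ruminant uterus that progesterone induces in the glands of sheep. SPP1 encodes osteopontin, a secreted phosphoprotein that binds integrins and is also made by macrophages. RBP4 carries retinol. CST3 (cystatin C) and CST6 (cystatin E/M) are secreted inhibitors of cysteine proteases, and ANPEP is aminopeptidase N, an enzyme of the apical membrane of epithelia and of myeloid cells, where it is known as CD13.

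None of the 7 genes passed an adjusted p of 0.05 in any of the 8 comparisons made (edgeR quasi-likelihood test, adjusted over all 10959 genes), although several differed between classes by large factors. TDGF1 in the very low class averaged 93.1 ± 154 CPM (SD, n = 3), against 2986 ± 209 CPM at very high progesterone (CPM is the standard depth-scaled read count of edgeR, here after TMM scaling, and not corrected for gene length). SERPINA14 averaged 0.433 ± 0.751 CPM in the very low class against 142.9 ± 220 CPM in the low class (SD, n = 3). SPP1 and CST3 had their highest mean in the very low and their lowest in the very high class. RBP4 and CST6 overlapped between all classes, and ANPEP was highest in the low class.

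**Figure D1:**
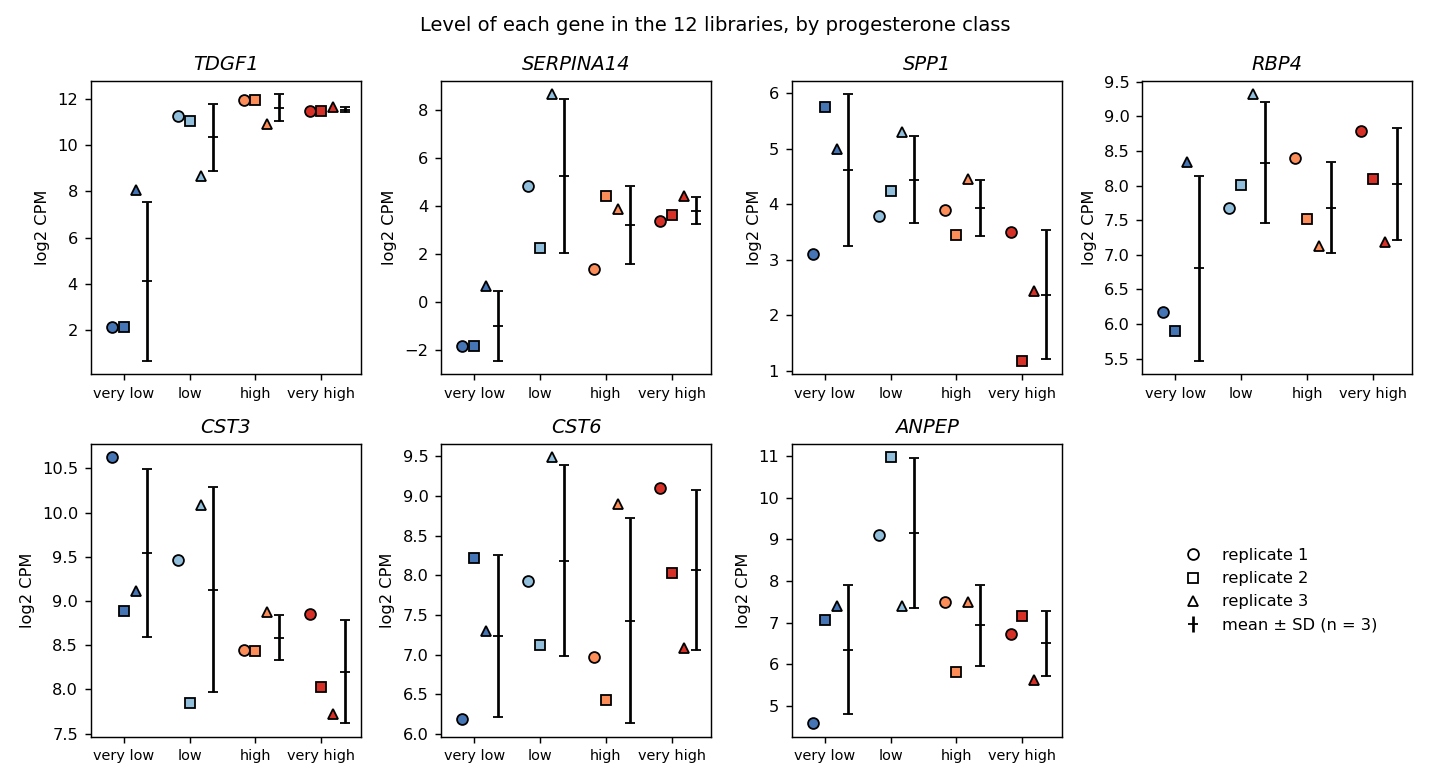
Each panel plots log2 CPM (prior count 2, own y axis per gene) of 1 gene in the 12 libraries by progesterone class. Symbols are the 3 replicates, and the bar is their mean ± SD. TDGF1 separates the very low class from the other 9 libraries, whereas RBP4 and CST6 spread as widely within classes as between them.

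Markers of several cell types differed widely between the libraries. The mean log2 CPM of the 14 smooth muscle markers was 9.06 to 10.3 in the 6 libraries of the upper classes, 4.76 to 5.86 in the low class, and 11.4, 4.83 and 6.08 in very low replicates 1, 2 and 3. The 12 epithelial markers scored 3.84 in very low replicate 1 and 6.59 to 8.88 in the other 11 libraries. None of them was at 0 in any library, but their summed level in very low replicate 1 was 241.0 CPM, against 1664 to 6729 CPM in the others. The 7 tested neutrophil markers scored 7.41 in very low replicate 2, 5.21 to 5.28 in the low class and 1.86 to 3.49 in the other 8 libraries. Total counts ran from 3772564 in very low replicate 2 to 8379489. In bulk RNA, fewer cells of a type and less RNA per cell cannot be told apart.

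**Figure D2:**
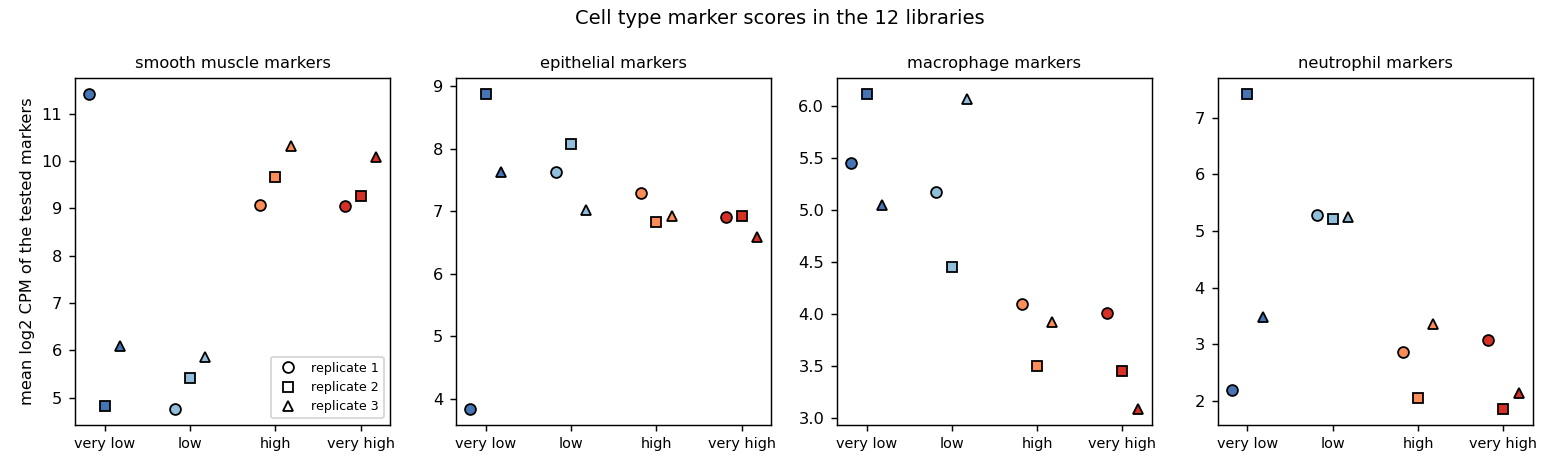
Mean log2 CPM of the tested markers of 4 cell types in each library, by progesterone class, with symbols for replicates. Very low replicate 1 has the highest smooth muscle score (11.4) and the lowest epithelial score (3.84). Macrophage scores are 5.04 to 6.11 in the very low class and 3.08 to 4.01 in the very high class.

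TDGF1, the co-receptor, was the member with the largest share of its variance between classes: 80.1% of the variance of its log2 CPM, against a median of 33.0% over all tested genes. In the very low class it had 4.07, 4.13 and 271.2 CPM, the first pair from only 23 and 16 reads. The low libraries had 2481, 2128 and 411.5 CPM, the high libraries 3959, 3970 and 1961 CPM, and the very high libraries 2841, 2890 and 3225 CPM. Every very low library was thus below every other library, and low replicate 3 was the lowest of the remaining 9. The very high libraries were nearly equal to each other, with a 1.14-fold range, while the very low ones spanned 66.7-fold.

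The fitted log2 fold change of TDGF1 was 4.16 ± 1.43 (SE) for low against very low (edgeR adjusted p = 0.338), 5.14 ± 1.499 for high against very low (edgeR adjusted p = 0.149) and 4.998 ± 1.49 for very high against very low (edgeR adjusted p = 0.0895). Among the other classes it was 0.98 for high against low and 0.84 for very high against low (edgeR adjusted p = 0.827 and 0.847). The latter had a 95% interval from -2.08 to 3.75. With the smooth muscle score as covariate very high against low was 4.45 (edgeR adjusted p = 0.239). Smooth muscle scores of the low class (4.76 to 5.86) and the upper classes (9.06 to 10.3) did not overlap. Such fits cannot well separate score from class there. The slope of TDGF1 over the class ranks was 1.44 ± 0.63 (SE) per class (edgeR adjusted p = 0.158). DESeq2 and limma-voom called this slope, along with 18.3% and 3.28% of all genes. Very low replicate 3 widened the spread. Without it TDGF1 passed the threshold in all 3 comparisons with the very low class, at 8.67, 9.65 and 9.50 (edgeR adjusted p = 0.0331, 0.0251 and 0.0132), in fits that called 0.144%, 1.12% and 2.92% of all genes. TDGF1 also passed with the smooth muscle score as covariate for high (7.66, edgeR adjusted p = 0.0367) and very high (7.47, edgeR adjusted p = 0.0277) against very low, where that fit called 10.4% and 16.5% of all genes. With smooth muscle and epithelial scores together TDGF1 did not pass (7.49 and 7.32, edgeR adjusted p = 0.471 and 0.306). That fit called 0% of all genes in both comparisons. The 2 very low libraries at 4.07 and 4.13 CPM were the ones with the highest (11.4) and the second lowest (4.83) smooth muscle score, and with the lowest (3.84) and the highest (8.88) epithelial score. The part of cell types in the level of TDGF1, smooth muscle and epithelium among them, was not tested.

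The genes whose profile over the 12 libraries was most like that of TDGF1 were GJB5 and ACMSD. Likeness was the root mean square difference of centred log2 CPM, 0.58 for GJB5 and 0.79 for ACMSD, where the median over 10235 genes was 3.50. GJB5, a connexin of gap junctions between epithelial cells, had 0 to 19.9 CPM in the very low, 33.6 to 220.0 in the low, 129.4 to 188.9 in the high and 82.9 to 281.3 CPM at very high progesterone. ACMSD, an enzyme of tryptophan breakdown, had 0 to 4.68 CPM in the very low class and 7.82 to 90.6 CPM in the other 9 libraries. In both genes very low replicate 3 had the highest value of its class and low replicate 3 the lowest of the rest, as in TDGF1. Both were picked for their likeness over these same libraries, so the shared pattern follows from that choice and is no separate evidence.

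**Figure D3:**
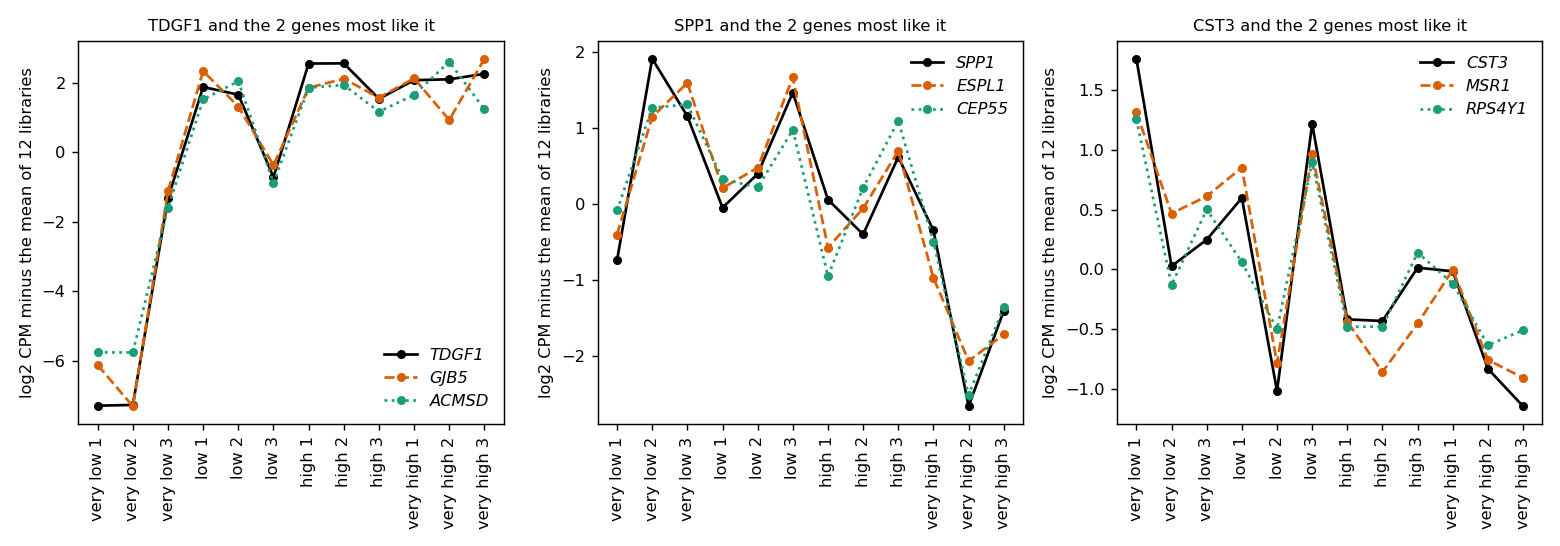
Centred log2 CPM (log2 CPM minus the mean of the 12 libraries) of TDGF1, SPP1 and CST3, each with the 2 genes most like it, over the 12 libraries in class order. GJB5 and ACMSD share the drop of TDGF1 in very low replicates 1 and 2, ESPL1 and CEP55 the low values of SPP1 in very high replicates 2 and 3, and MSR1 and RPS4Y1 the peaks of CST3 in very low replicate 1 and low replicate 3. The genes were picked for this likeness over the same libraries, so the shared features follow from the choice.

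TDGF1 acts with the NODAL and activin pathway. Of the listed genes of that pathway, 15 were measured and 11 tested, and none passed in any comparison. The ligand NODAL was nearly undetected, with 0 to 0.5 CPM in the 12 libraries. The median log2 fold change of the 11 was -0.32 for very high against very low, beside -0.12 over all tested genes. The activin receptor gene ACVR2A had 15.2 to 35.6 CPM, with overlapping classes. HSPA5, a chaperone that also binds CRIPTO at the cell surface, had 550.6 to 857.5 CPM in the very low class and 371.1 to 470.8 CPM at very high progesterone. These ranges did not overlap, as was so for 25.7% of all genes, and HSPA5 did not pass. Both were singled out after their values were seen.

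SERPINA14, the uterine serpin, had 0, 0 and 1.30 CPM in the very low class, that is 10 reads in all, each of them from replicate 3. A count of 0 allows up to 0.530 CPM in very low replicate 1 and 0.774 CPM in replicate 2 (3 reads per library, for counting error only). The low libraries had 27.9, 4.48 and 396.3 CPM. All 3 lay above the very low class but 88.5-fold apart. The high libraries had 2.28, 20.9 and 14.0 CPM and the very high libraries 9.84, 12.1 and 20.8 CPM, which overlapped each other and lay above the very low class as well.

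The log2 fold change of SERPINA14 was 8.01 ± 1.84 (SE) for low against very low (edgeR adjusted p = 0.275), and 0.347% of the tested genes had a smaller p there. It was 4.49 for high and 4.69 for very high against very low (edgeR adjusted p = 0.205 and 0.139). Relative to the low class it was -3.52 for high and -3.32 for very high (edgeR adjusted p = 0.415 and 0.369). With both the smooth muscle and the epithelial score in the fit these turned to 0.99 and 0.49 (edgeR adjusted p = 0.9997 and 0.996). Smooth muscle scores of the low and upper classes did not overlap, so that fit cannot well separate score from class. Low replicate 3, with its 2738 reads, set the excess of the low class: without it the log2 fold change of high against low was -0.38, that of very high against low -0.19 and that of low against very low 4.93. Without very low replicate 3 that class held no read of SERPINA14. DESeq2 called 2.67%, 7.19% and 13.8% of all genes for low, high and very high against very low. SERPINA14 was called higher in each of these (8.28, 4.75 and 4.95, DESeq2 adjusted p = 6.80e-06, 0.0214 and 0.00876). The profiles most like it were far from identical: PRG3, a homolog of eosinophil major basic protein whose symbol a pair of loci share in the gene table, so that its reads are uncertain, differed by 1.41 and the growth factor binding protein IGFBP2 by 1.78 (median of all 2.86).

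Among 15 tested members of the serpin family, SERPINB1, an inhibitor of neutrophil proteases, had a falling slope over the class ranks past the threshold (-0.74, edgeR adjusted p = 0.0431). That 1 gene of 15 is near the share of all genes called for the slope, 7.48%. Its values were 48.6, 465.5 and 84.2 CPM in the very low class against 37.2 to 51.4 CPM at very high progesterone, and very low replicate 2 also had the highest neutrophil score, 7.41. The part of neutrophils in this slope was not tested. The slope calls over all genes, 820 in the main fit, fell to 36 without very high replicate 2 and to 1 without very high replicate 3. Without the very low class 4 were left, while DESeq2 gave 2008. All list genes named for a slope, here and below, carry this limit. SERPINA11, of the same clade as SERPINA14, had 0 to 0.3 CPM in the very low class and 0.5 to 5.9 CPM in the other 9 libraries. It was singled out after its values were seen and was past the threshold in none of the comparisons.

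SPP1, osteopontin, had 8.31, 53.4 and 31.6 CPM in the very low class and 13.6, 18.6 and 39.2 CPM in the low class. The high libraries had 14.6, 10.6 and 21.7 CPM and the very high libraries 10.98, 1.99 and 5.15 CPM. The means stepped down with each class, from 31.1 ± 22.6 through 23.8 ± 13.6 and 15.6 ± 5.62 to 6.04 ± 4.56 CPM (SD, n = 3), but neighbouring classes overlapped, and very low replicate 1 lay inside the range of the very high class. The very high and low ranges did not overlap.

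The slope of SPP1 over the class ranks was -0.76 ± 0.23 (SE) per class on the log2 scale (edgeR adjusted p = 0.0646). Its log2 fold change was -2.35 ± 0.75 for very high against very low (edgeR adjusted p = 0.101), -1.97 for very high against low (edgeR adjusted p = 0.326) and -1.37 for very high against high (edgeR adjusted p = 0.9999). Without very low replicate 1, the library with the lowest SPP1 in its class, both the slope (-0.91, edgeR adjusted p = 0.0189) and the difference between the extreme classes (-2.80, edgeR adjusted p = 0.0423) passed the threshold, in fits that called 13.2% and 5.79% of all genes. DESeq2 on all libraries called both as well (DESeq2 adjusted p = 0.00731 and 0.0155), along with 18.3% and 13.8% of all genes. From class to class, SPP1 changed by -0.38 for low against very low, -0.60 for high against low and -1.37 for very high against high. The 8 tested macrophage markers had median log2 fold changes of 0.05, -1.64 and -0.26 over the same steps. Their summed level was 337.7 to 746.3 CPM in the very low, 242.9 to 750.4 in the low, 124.8 to 170.2 in the high and 82.5 to 179.0 CPM at very high progesterone. Of these 8 genes, 7 had a falling slope that passed, beside 7.48% of all genes called for the slope. A further 4 macrophage markers (AIF1, C1QA, C1QB and C1QC) were listed at 0 in every library. The part of macrophages in the level of SPP1 was not tested.

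The profiles most like SPP1 were those of ESPL1, the separase that splits sister chromatids, and CEP55, a protein of the last step of cell division (root mean square differences 0.44 and 0.49, median of all 1.29). Over the very low libraries ESPL1 averaged 9.28 ± 5.48 CPM (SD, n = 3), over the very high ones 1.41 ± 0.679 CPM, and CEP55 averaged 8.29 ± 3.82 and 1.60 ± 1.19 CPM. Of 10 tested osteopontin receptor genes, ITGAV and CD44 had falling slopes past the threshold and none a rising one, beside 7.48% of all genes called for the slope in either direction. ITGAV, the integrin subunit alpha V that recognises the RGD motif of osteopontin, had 16.1 to 84.1 CPM in the very low class against 7.5 to 10.5 CPM at very high progesterone (slope -0.71, edgeR adjusted p = 0.0418). CD44, a receptor for hyaluronan and osteopontin that leukocytes carry in quantity, had 106.8 to 574.6 and 46.8 to 109.8 CPM (slope -0.82, edgeR adjusted p = 0.0332).

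RBP4, the retinol carrier, had 71.9, 59.4 and 322.4 CPM in the very low class, and 203.6, 256.7 and 637.4 CPM in the low one. The high libraries had 337.9, 182.4 and 139.1 CPM and the very high libraries 442.8, 273.0 and 145.4 CPM. Very low replicates 1 and 2 were the lowest of the 12 and low replicate 3 the highest, with every pair of classes overlapping. The log2 fold change was 1.27 ± 0.71 (SE) for low and 0.92 ± 0.70 for very high against very low (edgeR adjusted p = 0.512 and 0.447), with 95% intervals from -0.36 to 2.91 and from -0.70 to 2.55. Without single libraries RBP4 ran from 0.60 to 2.48 and from 0.51 to 2.13 there. Its closest profiles were TWIST2, a transcription factor of mesenchymal cells (0.40), and FAM110D (0.42, median of all 1.07).

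No gene among 13 tested retinol carriers and receptors passed in any comparison. STRA6, a membrane receptor that takes up retinol from RBP4, had 19.6, 62.0 and 345.1 CPM in the very low class and was highest in low replicate 3 (414.2 CPM), the library that also led for RBP4. LRAT, which stores retinol as esters, instead had its lowest class mean in the very low and its highest in the high class, the order of class means that TDGF1 had: 3.18, 1.55 and 32.2 CPM in the very low class, 102.4, 129.9 and 23.2 CPM in the low, and 125.3 to 178.3 CPM in the 6 libraries of the upper classes. Both were singled out after their values were seen.

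CST3, the first of the cystatins, had 1581, 474.2 and 553.1 CPM in the very low class, and 704.5, 229.5 and 1083 CPM in the low one. It was lower in the high libraries, at 348.1, 344.8 and 470.1 CPM, and in the very high ones, at 460.2, 261.1 and 210.0 CPM. Each very low library lay above each high and each very high library, whereas the low class spanned nearly the whole range. Its slope over the ranks was -0.52 ± 0.17 (SE) per class on the log2 scale (edgeR adjusted p = 0.0769) and the log2 fold change of very high against very low -1.49 ± 0.60 (edgeR adjusted p = 0.167). That of high against very low was -1.17 ± 0.59 (edgeR adjusted p = 0.312). Very low replicate 1 contributed much of these: without it the differences were -0.73 and -0.41. DESeq2 called CST3 for the slope (DESeq2 adjusted p = 0.0220), along with 18.3% of all genes. With the smooth muscle score as covariate CST3 passed for very high against very low (-1.75, edgeR adjusted p = 0.0475) and for the slope (-0.59, edgeR adjusted p = 0.0472), in a fit that called 16.5% and 14.6% of all genes. With smooth muscle and epithelial scores together the direction turned, to 0.28 for very high and 1.16 for high against very low (edgeR adjusted p = 0.924 and 0.762), and the slope was -0.25 (edgeR adjusted p = 0.418). Of the very low and low libraries, only very low replicate 1 (11.4) had a smooth muscle score as high as the upper classes. These fits therefore cannot well separate score from class.

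The profiles most like CST3 were MSR1, the macrophage scavenger receptor (0.31), and RPS4Y1, which the table names as a ribosomal protein S4 gene (0.35, median of all 0.96). MSR1 stood in the macrophage list, whose scores were 5.04 to 6.11 in the very low, 4.45 to 6.07 in the low, 3.50 to 4.09 in the high and 3.08 to 4.01 in the very high class. The part of macrophages in the level of CST3 was not tested.

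CST6, the second cystatin, showed no such order. It had 72.6, 298.1 and 157.0 CPM in the very low, 243.5, 139.2 and 718.6 in the low, 125.1, 85.8 and 475.1 in the high and 549.3, 260.6 and 135.7 CPM at very high progesterone. All classes overlapped, and the share of its log2 CPM variance between classes, 15.95%, was below the median of all genes. The log2 fold change of very high against very low was 0.84 with a 95% interval from -1.06 to 2.74 (edgeR adjusted p = 0.559), and that of low against very low 1.06 ± 0.83 (SE, edgeR adjusted p = 0.632). Without single libraries they ran from 0.22 to 1.49 and from 0.12 to 1.70. Both inhibitors parted most in very low replicate 1, where CST3 was at its highest and CST6 at its lowest. That library had the highest smooth muscle score (11.4) and the lowest epithelial score (3.84). There CST3 had 21.8 reads for each read of CST6, against 0.838 to 4.02 in the other 11 libraries. Closest to CST6 were SLC35D2, a transporter of nucleotide sugars (0.64), and IFI6, an interferon-induced gene (0.67, median of all 1.12).

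Of 13 tested cystatins and cysteine proteases of the list, CTSC, CTSS and CTSW had falling slopes past the threshold, and none a rising one (7.48% of all genes were called). The cathepsins CTSC and CTSS act in leukocyte granules and in antigen presentation, and CTSW is a cathepsin of cytotoxic lymphocytes. Their slopes were -0.98, -0.65 and -0.57 log2 units per class (edgeR adjusted p = 0.0421, 0.0400 and 0.0387). LGMN, the legumain that CST6 inhibits, had 137.7 to 218.2 CPM in the very low class against 111.7 to 172.5 CPM at very high progesterone and did not pass.

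ANPEP, the aminopeptidase, had 548.5, 2021 and 167.3 CPM in the low class, where its mean was 912.4 ± 979 CPM (SD, n = 3). The very low libraries had 23.5, 134.0 and 169.4 CPM, the high libraries 179.9, 55.9 and 180.2 CPM and the very high libraries 105.9, 141.3 and 49.2 CPM. Low replicates 1 and 2 were above all other libraries, while low replicate 3 lay below the highest very low and high values. The low range did clear that of the very high class.

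The log2 fold change of ANPEP was 3.07 ± 0.96 (SE) for low against very low (edgeR adjusted p = 0.310), -2.72 ± 0.94 for high against low (edgeR adjusted p = 0.376) and -3.21 ± 0.96 for very high against low (edgeR adjusted p = 0.268). It was -0.14 between the extreme classes. Low replicate 2 carried much of the excess, and without it these 3 values were 1.73, -1.36 and -1.83. DESeq2 called ANPEP higher in the low than in the very low class (3.08, DESeq2 adjusted p = 0.0218) and lower in the very high than in the low class (-3.20, DESeq2 adjusted p = 0.0142). Over all genes DESeq2 called 2.67% and 3.38% in these pairs. Neutrophil scores, which belong to a cell type that carries ANPEP, were 5.21 to 5.28 in the low class, 2.20, 7.41 and 3.49 in very low replicates 1, 2 and 3, and 1.86 to 3.36 in the 6 libraries of the upper classes. The part of neutrophils in the level of ANPEP was not tested. The closest profiles were those of ANKRD65 (0.61) and CFAP161, a gene of motile cilia (0.77, median of all 1.63).

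A list of cell surface and other peptidases, ERAP1 among those not at the cell surface, had 17 tested genes. Of these, GGT1, GGT5 and MEP1B had rising slopes past the threshold and ERAP1 a falling one, while 7.48% of all genes were called for the slope. GGT5, a gamma-glutamyl transferase that cleaves leukotrienes and glutathione, had 22.1 to 72.1 CPM in the very low class against 338.3 to 548.5 CPM at very high progesterone (log2 2.95, edgeR adjusted p = 0.0333). MEP1B, the meprin beta subunit, had 0 to 1.0 CPM in the very low class and 111.0 to 606.6 CPM at very high progesterone (slope 1.98, edgeR adjusted p = 0.0414). GGT1 had a slope of 0.59 (edgeR adjusted p = 0.0387). ERAP1, which trims peptides for antigen presentation, had a slope of -0.74 (edgeR adjusted p = 0.0371).

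**Figure D4:**
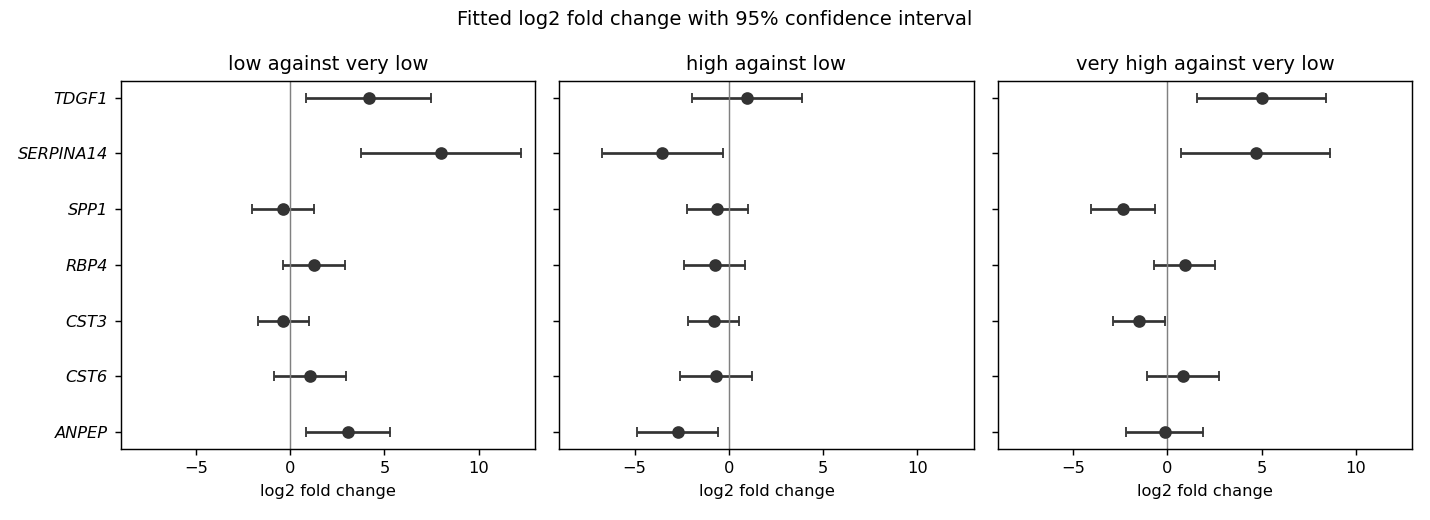
Fitted log2 fold change of each gene with its 95% confidence interval (8 residual degrees of freedom) in 3 comparisons of classes. Intervals of TDGF1 and SERPINA14 lie above 0 in both comparisons with the very low class and that of ANPEP for low against very low, those of SERPINA14 and ANPEP lie below 0 for high against low and those of SPP1 and CST3 for very high against very low, and none passed after adjustment over all genes.

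Counted over the 7 genes, the joint test of the 4 classes called 0 in edgeR, with 3 (TDGF1, SERPINA14 and ANPEP) under an unadjusted p of 0.05. It called 0% of all 10959 genes, 17.8% had an unadjusted p under 0.05, and DESeq2 called 2 of the 7 and 11.9% of all genes, and limma-voom 0. The slope over the class ranks called none of the 7, while it called 7.48% of all genes, and 3 members (TDGF1, SPP1 and CST3) had an unadjusted p under 0.05 where 27.9% of all genes did. Very high against very low also called 0 members, with 1.52% of all genes called, and 4 members had an unadjusted p under 0.05 where 23.8% of all genes did. Each of the other 5 pairs of classes called 0 members and 0% of all genes in edgeR. There the members under an unadjusted p of 0.05 numbered 3 for low against very low (11.6% of all genes), 2 for high against low (10.3%), 0 for very high against high (0.794%), 2 for high against very low (18.8%) and 3 for very high against low (11.9%). DESeq2 called 3 members for the slope (18.3% of all genes), 2 for low against very low (2.67%), 1 for high against very low (7.19%), 1 for very high against low (3.38%) and 2 for very high against very low (13.8%). It gave no adjusted p for TDGF1 in the pairs, so TDGF1 could not be called there. It called 0 members for high against low (2.20%) and very high against high (0%). limma-voom called 1 for the slope (3.28% of all genes) and 0 elsewhere.

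Ranges of CPM without overlap were found for 2 members between low and very low, namely TDGF1 and SERPINA14 (9.74% of all genes). For high against very low they were TDGF1, SERPINA14 and CST3 (20.4% of all genes), and for very high against very low the same 3 (25.7%). For very high against low they were TDGF1, SPP1 and ANPEP (22.8%). No member had separate ranges for high against low (20.0%) or very high against high (7.09%).

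The spread within classes was wide for all 7 genes. The SD of log2 CPM within a class, averaged over classes as a variance, was 1.89 for TDGF1, 1.96 for SERPINA14, 1.34 for ANPEP, 1.14 for CST6, 1.01 for SPP1, 0.95 for RBP4 and 0.81 for CST3, against a median of 0.45 over the tested genes. Even CST3, the steadiest, was more variable than 77.9% of tested genes, and SERPINA14 more than 98.6%. Single libraries stood out in several genes at once. Low replicate 3 had the highest value of the 12 for SERPINA14, RBP4 and CST6 and the second highest for SPP1 and CST3, but the lowest TDGF1 outside the very low class. Very low replicate 1 had the lowest TDGF1, CST6 and ANPEP and the highest CST3.

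Among other uterine secretory products, 29 of 35 listed genes in the table were tested. Over the class ranks 1 of them rose, IGFBP1, and 6 fell: IGFBP3, LGALS3, LIF, LTF, NPC2 and PLAU, where 7.48% of all genes were called. LIF had 0.53, 39.2 and 0.91 CPM in the very low class and at most 3.84 CPM elsewhere, so very low replicate 2 alone held a high value. IGFBP1, which marks the receptive endometrium of ruminants, had 0.2 to 0.6 CPM in the very low class against 7.8 to 30.1 CPM at very high progesterone (slope 1.67, edgeR adjusted p = 0.0386). LTF, the iron-binding lactoferrin of neutrophils and glands, had 115.6, 15730 and 546.5 CPM in the very low class against 137.9 to 215.1 CPM at very high progesterone (slope -1.72, edgeR adjusted p = 0.0436). These slope calls, too, carry the limit given above, that such calls over all genes nearly vanished without single very high libraries or the very low class. For very high against very low 2 of the 29 passed, the opioid precursor PENK and the metalloproteinase inhibitor TIMP2, both higher (1.52% of all genes were called). The median log2 fold change of the 29 was -1.30 in that comparison, beside -0.12 over all tested genes.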

How the data were processed

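The authors deposited raw counts, whole numbers of reads per gene symbol in 1 column per sample, neither scaled nor pooled. Per the labels' protocols the libraries were stranded TruSeq mRNA libraries, sequenced as paired reads from 1 pool. FastQC 0.11.2, Trimmomatic 0.32 and the builds UMD3.1 and bosTau8 come from the submitters' processing notes. What aligned and counted the reads, on which strand and with which annotation, is not given in the sources used here. With edgeR 4.0.16 (R 4.3.3) the analysis kept 10959 genes (filterByExpr, minimum count 10), scaled by TMM (factors 0.728 to 1.11) and fitted class means by quasi-likelihood to all 12 libraries (8 residual degrees of freedom), with a separate fit of a slope on class ranks 1 to 4. Benjamini-Hochberg adjustment ran over all tested genes, with a threshold of 0.05. DESeq2 1.42.0 and limma-voom (limma 3.58.1) were alternatives. The fit was also run on simulated counts with 200 genes changed in the very high class. That simulation did not model libraries that differ in cell types.

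The members, gene lists and alternatives were chosen with earlier results of these data known. Beside the 7 genes, the rule named for each the 2 genes (mean log2 CPM of at least 1, no locus numbers) with the most similar profile, and up to 2 genes of each list past the threshold in the joint test, of which there were none. Genes of the lists past the threshold in other comparisons, and others said to be so, were named after their values were seen. In RefSeq's genes for ARS-UCD2.0 the members were found by symbol, TDGF1 as a synonym of CRIPTO, and none overlaps another gene there. No pair of replicates was a duplicate: their chi-square ran from 21.9 to 280.8 per degree of freedom. Intervals and limits of counts cover counting error only where so stated.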

Additional observations from a re-analysis of the deposited data

How the results depend on the processing

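The count of members past the threshold, 0 in every comparison, was 2 with DESeq2 in the joint test, 3 for the slope, 2 for low against very low, 1 for high against very low, 1 for very high against low and 2 for very high against very low. limma-voom gave 1 for the slope. With the smooth muscle score as covariate it was 1 for the slope (14.6% of all genes), 1 for high against very low (10.4%) and 2 for very high against very low (16.5%). Leaving out 1 library at a time gave 0 to 1 for the slope and for each of the 3 comparisons with the very low class. DESeq2 gave no adjusted p for TDGF1 in the pairs. The count over all genes ran from 1 to 2008 for the slope (820 in the report), 0 to 1808 for very high against very low (167), 0 to 1303 for the joint test, 0 to 1138 for high against very low, 0 to 370 for very high against low, 0 to 293 for low against very low and 0 to 241 for high against low (each 0 in the report). The causes of these shifts were not tested.

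Of 647 fold changes and slopes of members refitted under an alternative, 624 kept their direction, and 19 of these passed the threshold. The slope of SERPINA14 (-0.75) was 0.69 under limma-voom, 0.27 with the replicate block, 1.28 with the smooth muscle score, 2.23 with smooth muscle and epithelial scores, and -1.04 to 0.96 without single libraries. With both scores SERPINA14 was 0.99 for high and 0.49 for very high against low, and CST3 1.16 for high and 0.28 for very high against very low. The slope of ANPEP (-0.77) was 0.43 with the smooth muscle score and 0.091 with both, and its difference between the extreme classes 0.17 under limma-voom, 1.07 once the smooth muscle score was a covariate and -0.63 to 0.33 without single libraries. Fits with these scores cannot well separate score from class, since smooth muscle scores of the low and upper classes did not overlap. Without the very low class the slopes of RBP4 (0.17) and CST6 (0.16) were -0.18 and -0.11, and that of CST6 was -0.0079 to 0.28 without single libraries. For low against very low CST3 was 0.37 with the smooth muscle score and -0.90 to 0.39 without single libraries, and SPP1 -0.95 to 0.26. No pairing of samples by replicate number was seen, though this check cannot exclude one. Of 18 same-numbered pairs, 3 had deviations correlated above 0.1. Among libraries of other classes, 4 of 12 libraries lay closest to one with their own number. The block left 180 genes with a slope past the threshold and 0 between the extreme classes. Ranking profiles by the largest difference kept 1 of the 2 genes most like SERPINA14, RBP4 and CST3, and both for the other 4.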
